A study of Mus musculus with 2 samples.

Results

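The plasma cells described here were 306 of 26145 thalamic CD45+ cells that passed the quality limits in 2 single-cell RNA-sequencing libraries of mice with cortical injury. They comprised 76 of 11690 cells from the control antibody (control Ab) library and 230 of 14455 cells from the anti-CD9 antibody (anti-CD9 Ab) library. A plasma cell was a cell with at least 2 UMIs (unique molecular identifiers, one per captured transcript) of *Mzb1* and *Derl3* together, at least 2 of *Jchain*, and none of *Ms4a1*, *Csf1r* or the CD3 genes *Cd3d*, *Cd3e* and *Cd3g*. Cells were kept when they had 200 to 7500 detected genes and no more than 5% mitochondrial UMIs. The cells were thus chosen by measured counts of these genes, whose levels are given as a description only.

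Both libraries came from C57B6/J mice with a cortical ablation injury, and live CD45+ cells were sorted from the thalamus 21 days after it. In the anti-CD9 Ab group, a rat monoclonal antibody (clone KMC8) against CD9, a membrane protein of the tetraspanin family, was injected into the thalamus through a cannula at 1.0 µg/µl between day 7 and day 19. The control Ab group received normal rat IgG by the same route, so both groups carried the injury, the cannula and a rat immunoglobulin. The study's methods state that thalamic cells of 4 mice were pooled but do not repeat this for the antibody groups. The control Ab library held 12245 barcodes and 38042608 UMIs and the anti-CD9 Ab library 15173 barcodes and 40825201 UMIs. With 1 library per antibody there was no test between them, and antibody, pool of mice and library cannot be told apart. Intervals in square brackets are exact 95% intervals. Those of shares and of gene levels cover counting error only. Those of medians are taken over single cells and reflect the spread between cells. None of them covers variation between mice.

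Plasma cells are the end stage of B cell differentiation and secrete antibody, so immunoglobulin transcripts take up much of their RNA and an enlarged endoplasmic reticulum (ER) folds the product. Each cell normally makes antibody of a single heavy chain class, IgM, IgG, IgA or IgE, and with a single light chain, kappa or lambda. IgM and IgA are joined into larger complexes by the J chain, which binds through the tailpiece that their secreted heavy chains carry and those of IgG lack. Plasma cells of mucosal tissues mostly make IgA, and the meninges and the injured brain can also hold plasma cells.

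The ends of the secreted heavy chain genes are shown because the class of each cell rests on counts of these genes, read near their 3-prime ends, and because they hold the J chain attachment site. The 60 coding bases before the stop codon are given 5′ to 3′ on the minus strand of chromosome 12 (GRCm38, GENCODE annotation), and capitals mark the codon of the cysteine next to the last residue. They lie in the last exon of the secreted form, at chr12:113420870-113420929 for *Ighm*, chr12:113258771-113258830 for *Igha*, chr12:113328979-113329038 for *Ighg1*, chr12:113306392-113306451 for *Ighg2b*, chr12:113287392-113287451 for *Ighg2c* and chr12:113359668-113359727 for *Ighg3*. *Ighm* and *Igha* end in this tailpiece, whereas the 4 *Ighg* genes end in lysine codons without it. No stretch of 60 bases within the last 400 bases was shared between any of the 6 transcripts.
Ighm: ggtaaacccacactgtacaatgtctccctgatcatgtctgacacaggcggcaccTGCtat
Igha: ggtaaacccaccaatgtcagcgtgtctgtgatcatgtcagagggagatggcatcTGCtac
Ighg1: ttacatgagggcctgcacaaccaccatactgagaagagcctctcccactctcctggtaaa
Ighg2b: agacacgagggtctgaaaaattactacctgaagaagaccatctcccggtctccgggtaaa
Ighg2c: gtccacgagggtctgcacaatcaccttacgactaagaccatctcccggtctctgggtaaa
Ighg3: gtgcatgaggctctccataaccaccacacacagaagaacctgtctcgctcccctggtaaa

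Plasma cells made up 0.650% [0.513 to 0.813] of kept cells in the control Ab library and 1.59% [1.39 to 1.81] in the anti-CD9 Ab one. These are shares of sorted CD45+ cells, which the sort itself can set. Most of the additional cells were shallow. Of the control Ab plasma cells, 68 of 76 were deep, with at least 3000 UMIs (0.582% of kept cells [0.452 to 0.737]), and of the anti-CD9 Ab plasma cells 97 of 230 did (0.671% [0.545 to 0.818]), so that the intervals of the 2 libraries overlapped at this depth. The limit of 3000 UMIs was chosen after the depths were seen. The 8 control Ab and 133 anti-CD9 Ab cells under it had a median of 1800 and 921 UMIs, whereas the deeper cells had medians of 8475 and 11247.

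In the anti-CD9 Ab library depth went together with the immunoglobulin content. Immunoglobulin genes took a median of 58.9% [55.0 to 61.5] of the UMIs of a deep control Ab cell and 51.5% [45.5 to 57.7] of a deep anti-CD9 Ab cell. In the shallow cells the medians were 47.7% [6.09 to 69.6] and 14.7% [13.1 to 16.8]. With control Ab the interval of the 8 shallow cells ran from their lowest to their highest value and contained that of the deep cells. For background, T cells had at least 2 UMIs of the CD3 genes and none of *Csf1r*, *Ms4a1*, *Mzb1*, *Derl3* or *Cd79a*. Barcodes with these plasma cell and B cell genes were thus left out before the background was measured. The summed UMIs of these T cells contained 0.0921% immunoglobulin in the control Ab library and 0.0692% in the anti-CD9 Ab one. The lowest single plasma cells of the respective libraries were at 6.09% and 2.48%. Both lay above these summed values, which do not give the spread over single T cells.

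**Figure D1:**
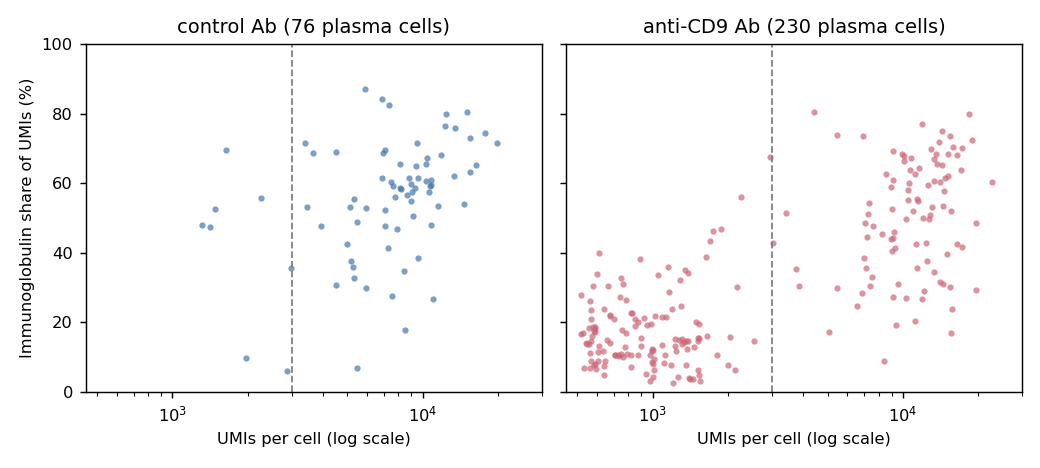
Each point is a plasma cell, with its total UMIs on a log axis and the percent of them from immunoglobulin genes, and the line marks 3000 UMIs. The anti-CD9 Ab library has 133 cells below the line, with a median of 14.7% immunoglobulin, and the control Ab library 8.

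The deep cells had the profile of plasma cells. Levels of other genes are given per 1000000 UMIs that are not immunoglobulin (CPM), in the order control Ab and anti-CD9 Ab. *Xbp1*, the transcription factor that builds the secretory apparatus, was at 2464 and 2731 CPM, compared with 56.3 and 45.0 in B cells. *Irf4* was at 547 and 538 and *Prdm1* at 165 and 151, both factors of plasma cell differentiation, and *Sdc1*, which encodes the surface marker CD138, at 185 and 150. *Pax5*, the B cell factor that is lost on differentiation, had 0 and 2 UMIs in these cells. The shallow anti-CD9 Ab cells departed from this profile in part, with *Xbp1* at 477, *Irf4* at 108 and *Sdc1* at 18.0 CPM, on 53, 12 and 2 UMIs. *Prdm1* was at 89.9 CPM [43.1 to 165] in them, which overlapped the 151 [120 to 188] of the deep anti-CD9 Ab cells. The ER genes *Hspa5* and *Creld2* were at 2347 and 1169 CPM, near the 2380 and 1131 of those deep cells. *Manf*, another ER gene, was lower, at 2122 CPM compared with 3485.

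The shallow anti-CD9 Ab cells also carried myeloid transcripts. The 8 macrophage markers summed to 12913 CPM in them, compared with 538 in the deep cells of the same library and 133 in the deep control Ab cells. In the deep anti-CD9 Ab cells *Saa3* led them with 154 UMIs and none was at 0, whereas in the deep control Ab cells *Lyz2* had 23 UMIs, *Saa3* had 4, and 3 of the 8 were at 0. The 8 neutrophil markers summed to 3022 CPM in the shallow anti-CD9 Ab cells, with 600 in the deep anti-CD9 Ab cells, led by *S100a9*, and 4.02 in the deep control Ab cells, where 7 of the 8 were at 0. Levels of genes are therefore compared in the deep cells, and the part of myeloid RNA in the profile of the shallow cells was not tested. Predicted doublets were 2 of 68 deep control Ab cells (2.94%, beside 9.79% of all kept cells of that library). Among the deep anti-CD9 Ab cells they were 13 of 97 (13.4%, beside 12.1% of all kept cells of that library).

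The limits on *Ms4a1*, *Csf1r* and CD3 genes left out many cells with the plasma cell markers. Of 192 control Ab and 404 anti-CD9 Ab cells with enough *Mzb1*, *Derl3* and *Jchain*, 116 (60.4%) and 174 (43.1%) had at least 1 UMI of these genes, and for 38 and 101 of them it was a single UMI. The cells left out had a median immunoglobulin share of 52.3% and 20.3%, beside 57.9% and 24.7% of the members. Counting all of these cells with at least 3000 UMIs gave 176 cells in the control Ab library and 178 in the anti-CD9 Ab one, 1.51% and 1.23% of kept cells, which turned the order of the libraries round. At the other edge of the rule, 35 anti-CD9 Ab members had exactly 2 UMIs of *Mzb1* and *Derl3* and 58 cells just outside had 1, the latter with a median of 736 UMIs and 13.1% immunoglobulin. For *Jchain*, 12 anti-CD9 Ab members had exactly 2 UMIs and 11 cells just outside had 1, and the control Ab library had at most 1 cell at each of these edges. The libraries shared 54 barcodes, among them 1 control Ab member and no anti-CD9 Ab member.

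*Igha* was the most frequent single constant gene in both libraries. The IgG genes together were called in fewer cells than *Igha* with control Ab and in more with anti-CD9 Ab, but without the *Ms4a1*, *Csf1r* and CD3 limits IgG led in both (80 and 71 of 187 control Ab cells, 210 and 146 of 381 anti-CD9 Ab cells). A cell was given a class when 1 heavy chain constant gene held at least 70% of at least 5 heavy chain UMIs, which succeeded for 75 of 76 control Ab and 221 of 230 anti-CD9 Ab cells. *Igha* was the gene in 31 control Ab cells (41.3% [30.1 to 53.3]) and 92 anti-CD9 Ab cells (41.6% [35.1 to 48.4]). *Ighm* was the gene in 17 (22.7% [13.8 to 33.8]) and 15 (6.79% [3.85 to 10.9]), and the 4 *Ighg* genes together in 27 (36% [25.2 to 47.9]) and 114 (51.6% [44.8 to 58.3]). The difference in IgG lay in one subclass: *Ighg1* was called in 3 control Ab cells (4% [0.833 to 11.2]) and 63 anti-CD9 Ab cells (28.5% [22.7 to 34.9]). *Ighg2b* (13 and 34 cells, 17.3% and 15.4%), *Ighg2c* (10 and 14, 13.3% and 6.33%) and *Ighg3* (1 and 3) had overlapping intervals. No cell was called IgD or IgE, which allows a share of up to 4% of the 75 control Ab and 1.36% of the 221 anti-CD9 Ab called cells (3 cells of the total).

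**Figure D2:**
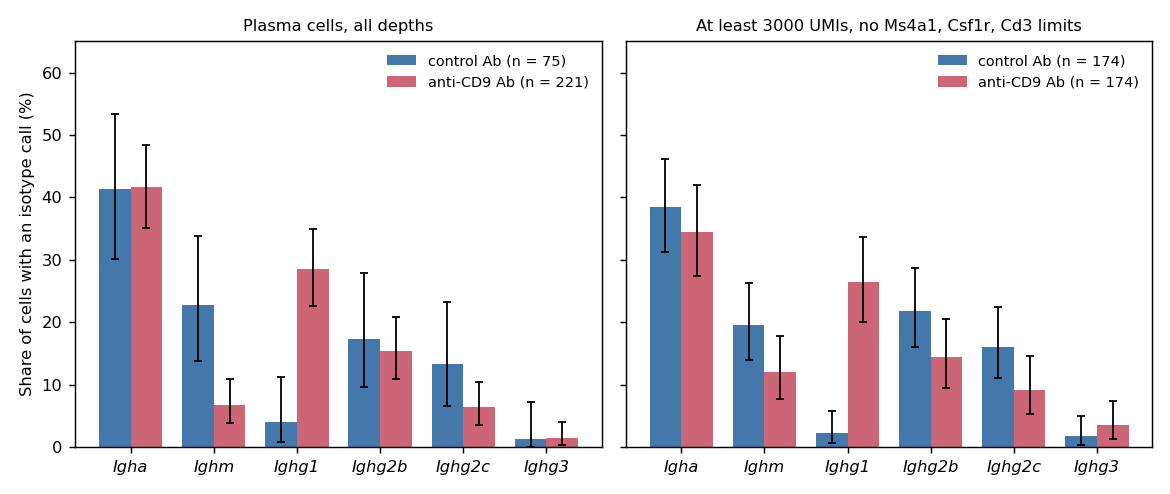
Percent of class-called cells with each heavy chain constant gene, by library, with exact 95% binomial intervals that cover counting error only. The left panel shows the plasma cells (75 control Ab and 221 anti-CD9 Ab cells). There Igha is near 41% in both, Ighg1 is at 4% and 28.5%, and Ighm is at 22.7% and 6.79%. The right panel shows cells with at least 3000 UMIs without the Ms4a1, Csf1r and CD3 limits (174 and 174 cells). There Igha is at 38.5% and 34.5%, Ighg1 at 2.30% and 26.4%, and Ighm at 19.5% and 12.1%.

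The *Ighg1* gap did not depend on the shallow cells or on the limits. Among deep cells *Ighg1* was called in 2 of 68 (2.94% [0.358 to 10.2]) and 27 of 97 (27.8% [19.2 to 37.9]), and without the *Ms4a1*, *Csf1r* and CD3 limits at this depth in 4 of 174 (2.30% [0.630 to 5.78]) and 46 of 174 (26.4% [20.1 to 33.6]). The IgM gap was smaller there, with 17 of 68 (25% [15.3 to 37.0]) and 11 of 97 (11.3% [5.80 to 19.4]) among deep cells and 34 of 174 (19.5%) and 21 of 174 (12.1%) without the limits. The intervals for IgM overlapped at this depth, whereas those for *Ighg1* did not. Since each class in a library came from an unknown number of mice and clones, the spread of these shares between animals was not measured.

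Most cells were dominated by a single class. The leading gene held a median of 99.9% of a cell's heavy chain UMIs in both libraries, and at least 90% in 74 of 76 control Ab and 210 of 230 anti-CD9 Ab cells. The lowest leading shares were 53.6% and 57.1%, and 1 and 9 cells had no class called. The heavy chain UMIs found in cells that do not make antibody gave the background. Among T cells, 20.9% (control Ab, median 1647 UMIs per cell) and 30.9% (anti-CD9 Ab, median 2314) had at least 1 heavy chain UMI, but only 17 of 5524 and 27 of 2890 reached 5. This background had the same *Ighg1* gap, since *Ighg1* held 0.747% of the heavy chain UMIs in control Ab T cells and 20.1% in anti-CD9 Ab T cells. In cells with at least 2 *Csf1r* UMIs the values were 0.190% and 36.8%, but these cells were not cleared of cells with plasma cell markers. In B cells, where *Ighm* held 74.8% and 73.9% of the heavy chain UMIs, *Ighg1* held 0 and 2.61%.

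Kappa was the light chain of nearly all cells. It was called in 74 of 76 control Ab cells (97.4% [90.8 to 99.7]) and 223 of 229 anti-CD9 Ab cells (97.4% [94.4 to 99.0]), with 2 and 6 lambda cells. All 6 anti-CD9 Ab lambda cells were shallow. Kappa transcripts (*Igkc*) alone amounted to 294029 and 485176 UMIs, the most abundant gene of these cells.

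Variable genes were read in part of the cells, because the reads lie near the 3-prime end. With at least 3 UMIs of 1 leading gene, a heavy chain variable gene was called in 31 of 76 and 58 of 230 cells and a kappa one in 58 and 80. The most frequent heavy chain genes were *Ighv3-6* (5 cells) and *Ighv6-3* (4) with control Ab, and *Ighv1-9* (7), *Ighv6-3* (7) and *Ighv1-76* (6) with anti-CD9 Ab. The most frequent kappa genes were *Igkv3-7* (6) and *Igkv3-4* (5), and *Igkv1-110* (11), *Igkv12-44* (7) and *Igkv6-15* (6). *Ighv3-6* thus took 5 of 31 called control Ab cells, and *Igkv1-110* 11 of 80 called anti-CD9 Ab cells.

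Both variable genes were called in 26 control Ab and 48 anti-CD9 Ab cells, in 20 and 31 different pairs. A pair seen in several cells took up 9 and 25 of these cells. The pair *Ighv1-9* with *Igkv12-44* occurred in 6 anti-CD9 Ab cells of 3 constant genes (2 *Ighg1*, 3 *Ighg2b* and 1 *Igha*), and *Ighv1-76* with *Igkv1-110* in 5 anti-CD9 Ab cells, all IgA. There were 2 pairs in both libraries, *Ighv3-6* with *Igkv3-7* (5 and 2 cells, all IgA) and *Ighv6-3* with *Igkv6-17* (2 and 3 cells, IgM or IgA). The junctions were not read, so a shared pair of genes does not make these cells a clone.

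The share of *Jchain* was higher in IgA than in IgG cells of both libraries. Among deep cells *Jchain* took a median of 6.88% [5.06 to 8.0] of the UMIs of a control Ab IgA cell and 3.88% [2.97 to 4.81] of an anti-CD9 Ab IgA cell. IgM cells had 3.74% [1.31 to 6.40] and 4.19% [2.51 to 4.71]. IgG cells, whose heavy chain lacks the capital TGC codon shown above, had 1.63% [1.21 to 2.37] and 1.40% [1.05 to 1.69]. The intervals of the IgA and IgG medians thus did not overlap in either library, while IgG cells still had *Jchain* in every cell, as the rule requires. The rule asked for 2 *Jchain* UMIs, a small part of these amounts, but cells with less were not seen, so the levels are a description. In deep cells left out by the limits, the medians for IgA, IgM and IgG were 5.42%, 1.61% and 1.46% with control Ab, and 2.99%, 2.04% and 1.33% with anti-CD9 Ab, so that IgA was the highest in both libraries there and IgM lay closer to IgG. Among the anti-CD9 Ab members, by contrast, the IgM median lay above that of IgA, with overlapping intervals.

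**Figure D3:**
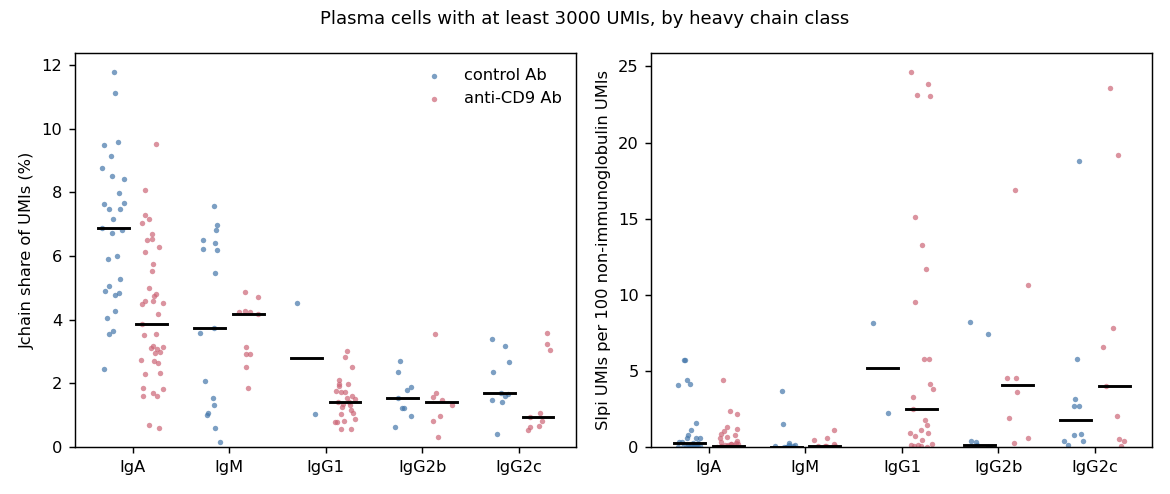
Percent of all UMIs from Jchain and percent of non-immunoglobulin UMIs from Slpi in each deep plasma cell, by class and library, with medians. IgG cells are drawn by subclass. IgA cells sit above the IgG subclasses for Jchain (medians 6.88% and 3.88%). With control Ab the Slpi medians of IgG1 (2 cells), IgG2b and IgG2c are 5.21%, 0.121% and 1.77%, beside 0.228% for IgA. With anti-CD9 Ab they are 2.52%, 4.06% and 4.03%, beside 0.0407% for IgA.

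IgA and IgG cells differed in further genes. The classes were called from heavy chain counts alone, and other genes took no part. IgA cells had more of the receptors *Ccr10*, which responds to chemokines of epithelia, *Tnfrsf17*, the receptor BCMA for plasma cell survival factors, and *Cd28*, a co-stimulatory receptor that plasma cells also carry. They had more *Bcl2*, which protects from apoptosis, and more *Txndc5*, an ER enzyme of disulfide formation. IgG cells had more *Slpi*, a secreted protease inhibitor, *Ly6c2*, a surface protein, and *Ccnd2*, a cyclin.

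*Ccr10* had 50 UMIs in 15 of 29 IgA cells and 6 UMIs in 5 of 22 IgG cells with control Ab. With anti-CD9 Ab it had 61 UMIs in 25 of 41 IgA cells and 8 UMIs in 7 of 45 IgG cells. IgM cells, with 71.3 and 74.3 CPM, were closer to IgG cells (81.7 and 35.0) than to IgA cells (475 and 241). When cells were thinned to 1000 non-immunoglobulin UMIs, *Ccr10* was detected in 21.4% and 19.5% of IgA cells and in 9.52% and 9.09% of IgG cells. All other cell groups were near 0, with 0.285 and 0 CPM in T cells and 0 UMIs in B cells.

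*Tnfrsf17* gave the clearest gap in the control Ab library, with 35 UMIs in 16 of 29 IgA cells and 1 UMI in 1 of 22 IgG cells. With anti-CD9 Ab it had 38 UMIs in 17 of 41 IgA cells and 5 UMIs in 3 of 45 IgG cells. IgM cells were on the side of IgA, at 228 and 279 CPM, compared with 333 and 150 in IgA and 13.6 and 21.9 in IgG cells. In deep cells left out by the limits IgM was lower, at 26.4 and 66.1 CPM on 3 and 5 UMIs, compared with 168 and 134 in IgA and 12.0 and 19.9 in IgG cells. T cells had 0.380 and 0 CPM. The related receptor TACI (*Tnfrsf13b*) was at 618 and 289 CPM in IgA cells and 204 and 206 in IgG cells, a smaller gap.

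*Txndc5* had the most UMIs of the genes higher in IgA cells apart from *Jchain*. It was at 3183 and 1999 CPM in IgA cells and 422 and 469 in IgG cells, a log2 difference of 2.89 and 2.09. IgM cells had 1911 and 3881 CPM, above IgG in both libraries and above IgA with anti-CD9 Ab. In the left-out control Ab cells IgM was at 844 CPM, between IgA (1473) and IgG (450). *Cd28* had 22 and 27 UMIs in IgA cells and 2 in the IgG cells of each library, and *Bcl2* 30 and 28 UMIs compared with 5 and 5.

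*Slpi* was the most abundant gene that was higher in IgG cells. IgG cells had 29181 and 56685 CPM, IgA cells 10774 and 4948, and IgM cells 2738 and 2154. In single cells it was uneven, from 0 to 18.8% of the non-immunoglobulin UMIs of a control Ab IgG cell and from 0 to 24.6% with anti-CD9 Ab. At least 10 *Slpi* UMIs were found in 15 of 22 and 36 of 45 IgG cells, in 15 of 29 and 15 of 41 IgA cells, and in 2 of 17 and 4 of 11 IgM cells. By subclass, 21 of 27 *Ighg1*, 7 of 8 *Ighg2b* and 8 of 9 *Ighg2c* cells of the anti-CD9 Ab library were at this count. In the control Ab library 2 of 2 *Ighg1* and 9 of 10 *Ighg2c* cells were, but only 4 of 9 *Ighg2b* cells, whose median of 0.121% was under the 0.228% of IgA cells. *Slpi* in other cells of the libraries was much lower, at 28.1 and 113 CPM in B cells, 6.93 and 158 in T cells and 32.1 and 381 in *Csf1r* cells.

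Over all genes with at least 20 UMIs in both classes together in each library, 15 were past 2-fold higher in IgA than IgG cells in both libraries (1.14% of 1312 genes) and 9 lower (0.686%). This criterion was set after the values were seen. The 15 were *Jchain*, *Ccr10*, *Tnfrsf17*, *Cd28*, *Bcl2*, *Txndc5*, *Ikzf3*, *Zfp36l1*, *Alcam*, *Cybb*, *Itpr1*, *Laptm5*, *Serpina3g*, *Znrf3* and *Atosa*. Among the 9 were *Slpi*, *Ly6c2*, *Ccnd2*, *Vpreb3*, *Jun*, *Apoe*, *C1qa* and *Spp1*, of which *Apoe*, *C1qa* and *Spp1* are typical of microglia and macrophages. The part of myeloid RNA in the class differences was not tested. IgA against IgM cells gave 5 higher (0.396% of 1264 genes, among them *Ccr10*, *Cd28*, *Ctse* and *Slpi*) and 11 lower (0.87%), among them *Cd79a*, the signalling chain of the B cell receptor, and the B cell transcription factors *Foxp1* and *Pou2f2*, but also the myeloid genes *Apoe* and *C1qc*. *Apoe* was at 3166 and 2303 CPM in IgM, 2738 and 1603 in IgG and 437 and 459 in IgA cells.

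**Figure D4:**
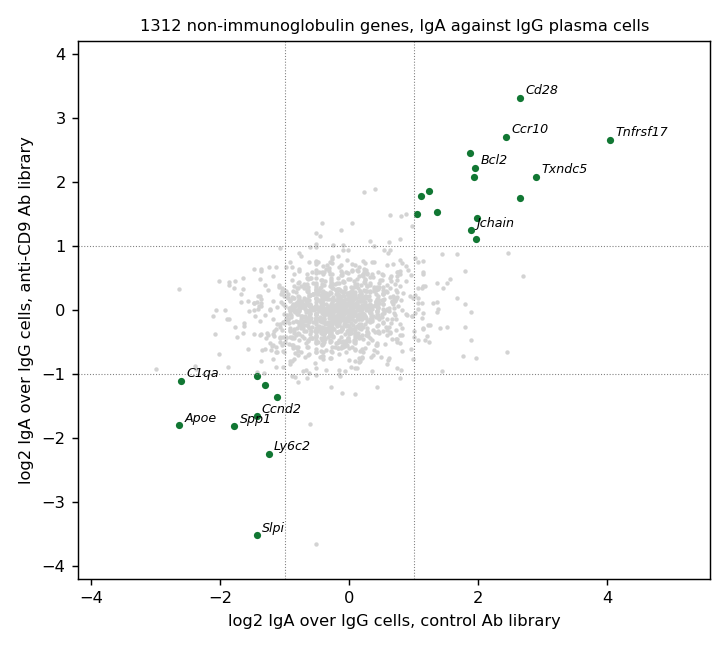
Log2 ratio of IgA over IgG deep plasma cells for genes with at least 20 UMIs in each library, control Ab on the x axis and anti-CD9 Ab on the y axis, with the lines at 2-fold. The 15 genes past 2-fold higher in both libraries include Tnfrsf17, Ccr10 and Txndc5, and the 9 lower include Slpi.

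The cells left out by the *Ms4a1*, *Csf1r* and CD3 limits took no part in choosing these 24 genes, but they came from the same libraries. Of the 15 genes higher in IgA cells, 13 were higher in the left-out control Ab cells (6 past 2-fold, beside 3.48% of 4481 genes) and 13 in the left-out anti-CD9 Ab cells (7 past 2-fold, beside 3.7% of 3704). The 15 include *Jchain*, which the rule required in members and left-out cells alike, so its part in these counts is a description only. Of the 9 lower genes, 4 and 6 were lower (2 past 2-fold in each, beside 4.91% and 7.37%). The shares of all genes in either direction without the 2-fold limit were not counted. The median log2 differences were 0.60 and 0.84 for the 15 genes and 0.12 and -0.54 for the 9. Over all genes they were -0.06 and -0.003. *Ccr10* had 69 and 37 UMIs in left-out IgA cells compared with 11 and 8 in IgG cells, and *Tnfrsf17* had 42 and 17 compared with 3 and 6. *Txndc5* was at 1473 and 1449 CPM compared with 450 and 341, and *Slpi* at 3561 and 1237 compared with 16866 and 35350. *Ccr10*, *Tnfrsf17*, *Txndc5* and *Slpi* thus kept their direction in these cells. In the left-out control Ab cells *Cd28* was at 176 CPM in IgA and 116 in IgG cells and *Bcl2* at 327 and 171, under 2-fold. In the left-out anti-CD9 Ab cells *Bcl2* was also under 2-fold, at 55.1 and 36.4 CPM on 7 and 11 UMIs. *Cd28* was at 70.9 and 19.9 CPM there, on 9 and 6 UMIs. The list of 9 did not keep its direction in the control Ab library, where 5 of the genes were higher in IgA cells and the median log2 difference was 0.12, beside -0.06 over all genes.

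Of the lists of genes with a shared role, the survival receptors and Bcl2 family had 4 of 9 compared genes past 2-fold higher in IgA than IgG cells in the control Ab library (beside 5.25% of 1333 genes) and 4 of 12 in the anti-CD9 Ab one (4.71% of 3800), and none lower (beside 9.6% and 4.16%). The list holds *Tnfrsf17*, *Cd28* and *Bcl2*, which were described above and chosen after their values were seen. Genes were compared on their UMIs in IgA and IgG cells together, and these genes passed through their IgA cells. The counts for this list therefore restate that choice in part and are a description. ER chaperones had a median log2 difference of -0.61 in the control Ab library and -0.02 in the anti-CD9 Ab one, beside -0.18 and 0.00 over all genes. *Xbp1* was at 2527 and 2343 CPM in IgA, 1483 and 3212 in IgM and 3310 and 3047 in IgG cells. IgG was thus above IgA in both libraries, whereas IgM was the lowest with control Ab and the highest with anti-CD9 Ab. *Cxcr3*, a receptor for interferon-induced chemokines, had 6 and 3 UMIs in IgA and 10 and 12 in IgG cells.

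Most genes of the secretory apparatus were higher in the summed counts of plasma cells than in those of B cells (cells with *Ms4a1* and the CD79 genes, without *Jchain*). The rule for plasma cells used this contrast, so the numbers describe the cells and nothing is read from them. With at least 20 UMIs, 583 genes were past 2-fold higher in plasma cells than B cells (17.1% of 3400) and 816 lower (24%) with control Ab, and 1114 higher (14.9% of 7497) and 1719 lower (22.9%) with anti-CD9 Ab. Of 23 ER chaperones and folding enzymes, 22 were past 2-fold higher in each library, with median log2 differences of 3.28 and 3.65. Of 22 genes for the translocon, signal peptidase and glycan transfer, which bring new chains into the ER, 21 and 22 were past 2-fold higher, and all 14 and 15 compared genes of transport from the ER to the Golgi. Genes of B cell identity were lower for 9 of 12 and 14 of 15, and of MHC class II presentation for 8 of 10 and 10 of 10. Antibody glycosylation was mixed, with 3 and 4 of 8 genes past 2-fold higher and 2 lower in each library, and of 9 regulators of antibody-secreting cells 6 were higher and 3 lower in each.

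Many chaperone genes share a promoter element that factors of the unfolded protein response bind. The element, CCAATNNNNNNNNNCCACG on either strand, was found in the 250 bases before the start of 8 of the 21 chaperone genes with a promoter in the RefSeq table for GRCm38.p6 (38.1%, beside 0.137% of all 27025 genes). These were *Hspa5*, *Hsp90b1*, *Creld2*, *Calr*, *Canx*, *Dnajc3*, *Ero1b* and *Pdia6*. The promoters of a major ER chaperone (*Hspa5*), the most abundant gene of the list (*Hsp90b1*) and the marker *Creld2* are shown, since these genes belong to the list that was higher in plasma cells than B cells. They lie at chr2:34771840-34772089 (plus strand), chr10:86705445-86705694 (minus strand) and chr15:88819396-88819645 (plus strand), are written 5′ to 3′ towards the gene, and carry the matched letters in capitals, which read CGTGG and ATTGG where the match is on the reverse strand. *Hsp90b1* has a match on each strand. A match is a description of the sequence and not a measured binding site.
Hspa5: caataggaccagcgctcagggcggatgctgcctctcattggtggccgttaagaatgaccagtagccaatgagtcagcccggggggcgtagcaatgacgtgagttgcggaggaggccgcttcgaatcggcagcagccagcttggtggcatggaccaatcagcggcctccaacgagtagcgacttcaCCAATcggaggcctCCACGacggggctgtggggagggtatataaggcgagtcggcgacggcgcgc
Hsp90b1: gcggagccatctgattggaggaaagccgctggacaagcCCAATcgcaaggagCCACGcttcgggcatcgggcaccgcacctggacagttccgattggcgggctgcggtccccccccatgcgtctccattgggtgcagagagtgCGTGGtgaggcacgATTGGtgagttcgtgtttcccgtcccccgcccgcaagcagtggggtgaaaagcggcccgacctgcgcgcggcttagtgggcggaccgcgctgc
Creld2: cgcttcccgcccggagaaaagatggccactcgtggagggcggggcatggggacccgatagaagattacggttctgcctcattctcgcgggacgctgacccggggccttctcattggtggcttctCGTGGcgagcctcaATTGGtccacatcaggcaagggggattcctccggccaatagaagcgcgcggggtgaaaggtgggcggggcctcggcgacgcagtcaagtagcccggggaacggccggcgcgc

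Between the antibodies, most secretory genes of deep plasma cells differed by less than 2-fold. Over all genes with at least 50 UMIs in deep plasma cells, 129 were past 2-fold higher with anti-CD9 Ab (5.08% of 2541) and 62 lower (2.44%). *Hspa5* was at 1982 CPM in the control Ab library and 2380 in the anti-CD9 Ab one (log2 difference 0.26), *Hsp90b1* at 5471 and 7065 (0.37) and *Creld2* at 900 and 1131. *Manf*, a secreted ER stress factor, was at 2448 and 3485 (0.51). None of the 23 chaperone, 22 translocon or 14 ER-to-Golgi genes was past 2-fold in either direction, and the list medians were 0.26, 0.23 and 0.27, beside a median of 0.15 over all genes. Scaled to all UMIs, 1 translocon gene was past 2-fold higher (beside 9.84% of all genes). Without the *Ms4a1*, *Csf1r* and CD3 limits, 1 chaperone and 1 translocon gene were (beside 4.2%). With each cell counted equally the chaperone median was 0.14 in deep cells. With shallow cells included it was 0.17, or -0.10 with each cell counted equally, so that its direction depended on the weighting there. Of 12 genes of ER-associated degradation and the unfolded protein response, 1 was past 2-fold lower, *Herpud1* (1527 and 727 CPM, log2 difference -1.07), and the stress sensor *Ern1* was at 482 and 247 CPM (-0.97). Of 8 antibody glycosylation genes 1 was, the galactosyltransferase *B4galt1* (-1.24). Neither list had a gene past 2-fold lower when scaled to all UMIs or without the *Ms4a1*, *Csf1r* and CD3 limits. *Mzb1*, a chaperone of antibody assembly, was at 10443 and 9956 CPM and *Derl3*, of ER-associated degradation, at 639 and 507.

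The cell cycle genes were higher in the anti-CD9 Ab plasma cells. *Mki67*, which marks cycling cells, was at 40.2 and 284 CPM in deep cells, on 10 and 152 UMIs, and *Birc5*, a mitosis gene, had 2 and 107 UMIs. A gene was compared on its UMIs in both libraries together, and *Mki67* and *Birc5* passed through their anti-CD9 Ab UMIs. The deep anti-CD9 Ab cells held 534875 non-immunoglobulin UMIs and the deep control Ab cells 248781. The rule thus favours genes higher with anti-CD9 Ab, although it held for all genes alike. Of 10 compared proliferation genes 8 were past 2-fold higher with anti-CD9 Ab (beside 5.08% of all genes) and none lower, with a median log2 difference of 1.74. The count was 9 of 10 when scaled to all UMIs (beside 9.84%) and 11 of 14 without the *Ms4a1*, *Csf1r* and CD3 limits (beside 4.2%). Cells with at least 2 UMIs of *Mki67* and *Top2a* together were 2 of 68 (2.94% [0.358 to 10.2]) in the control Ab library and 22 of 97 (22.7% [14.8 to 32.3]) in the anti-CD9 Ab one. In cells thinned to 1000 non-immunoglobulin UMIs, 3.03% [0.369 to 10.5] and 14.6% [8.21 to 23.3] had a UMI of these genes, with overlapping intervals.

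The cycling cells of the anti-CD9 Ab library were IgA (11 of 41) and IgG (11 of 45), with 0 of 11 IgM cells, and the 2 of the control Ab library were IgM (of 17). Without predicted doublets the shares were 2 of 66 and 18 of 84 (21.4%), and without the *Ms4a1*, *Csf1r* and CD3 limits 11 of 176 (6.25%) and 45 of 178 (25.3%). The latter cells, thinned in the same way, gave 4.05% [1.64 to 8.16] and 19.8% [14.2 to 26.4], whose intervals did not overlap. The shares in other cells also differed between the libraries: 1.67% and 9.07% of T cells and 1.92% and 4.22% of *Csf1r* cells, but 4.35% and 0.813% of B cells, at median depths of 1647 and 2314, 4010 and 4951, and 2147 and 1959 UMIs.

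Some genes of amino acid supply and of antigen presentation were lower in the anti-CD9 Ab plasma cells. The MHC class II count depended on the scaling, the depth and the limits, and the amino acid count less so. *Asns*, asparagine synthetase, was at 434 and 101 CPM (log2 difference -2.10) and *Slc3a2*, a chain of amino acid transporters, at 2311 and 832 (-1.47). *Atf5*, a factor of the amino acid stress response, had 70 and 38 UMIs. *Asns* and *Slc3a2* belong to a list of amino acid genes, of which 3 of 6 compared were past 2-fold lower (beside 2.44% of all genes) and none higher, with a median of -0.93, with 2 of 6 when scaled to all UMIs (beside 1.18%) and 3 of 7 without the *Ms4a1*, *Csf1r* and CD3 limits (beside 8.17%). All 5 compared MHC class II genes were past 2-fold lower (beside 2.44%), among them *Cd74* (8875 and 4315 CPM) and *H2-Aa* (1234 and 428), but only 2 of 5 were when scaled to all UMIs (beside 1.18%), and 1 of 5 when shallow cells were included (beside 2.16%). Without the *Ms4a1*, *Csf1r* and CD3 limits 1 of 8 was, near the 8.17% of all genes. Microglia markers moved with these genes: the 9 markers summed to 812 and 340 CPM in the deep cells, led by *C1qa* (378 and 155), with 2 and 4 of them at 0. *Cd74* was at 3869 and 5925 CPM in *Csf1r* cells, and the part of microglial RNA in the MHC class II values was not tested. The B cell gene *Cd79a* was at 1913 and 709 CPM and *Ly6d*, a surface protein of early B cells, at 3007 and 1385.

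Of the survival genes, *Tnfrsf17* was at 209 and 108 CPM, and *Bcl2* at 193 and 74.8 (log2 difference -1.36). The survival list had a median of -0.57 with 2 of 12 genes past 2-fold lower (beside 2.44% of all genes). Scaled to all UMIs, 1 of 12 was (beside 1.18%), with a median of -0.33. Without predicted doublets 1 of 10 was (beside 2.72%), with a median of -0.76. Without the *Ms4a1*, *Csf1r* and CD3 limits 3 of 15 were (beside 8.17%), with a median of -0.29. The homing receptor *Ccr10* was at 245 and 136 CPM. *Jchain* was at 114534 and 58812 CPM. *Cd9* itself, the target of the injected antibody, was at 253 and 239 CPM in deep plasma cells, on 63 and 128 UMIs. *Cxcr4*, the receptor that holds plasma cells in bone marrow, was at 32.2 and 65.4 CPM, on 8 and 35 UMIs. *Il10*, which some plasma cells secrete, was at 8.04 and 7.48 CPM, on 2 and 4 UMIs.

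**Figure D5:**
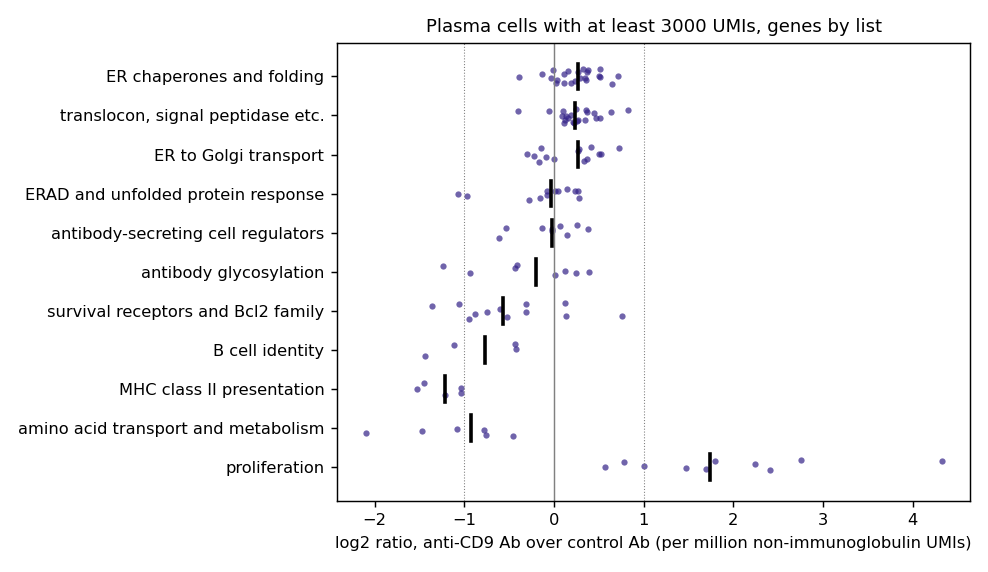
Log2 ratio of anti-CD9 Ab over control Ab for the genes of 11 lists of plasma cell functions in deep plasma cells, with a bar at each list median and dotted lines at 2-fold. Of the lists plotted, proliferation lies highest (median 1.74) and MHC class II lowest (median -1.21), and the first 3 secretory lists have medians of 0.26, 0.23 and 0.27.

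When shallow cells were included, 208 genes were past 2-fold higher with anti-CD9 Ab (7.02% of 2965) and 64 lower (2.16%). The highest ratios in deep cells were mostly those of myeloid cells, and several of them rested on few cells. *Cxcl2*, a neutrophil chemokine, had 0 and 706 UMIs, of which 410 were in 1 cell and 23 in cells that were not predicted doublets. *Ccl4* fell likewise from 454 to 11 UMIs without predicted doublets, *Ccl3* from 203 to 6 and *S100a9* from 186 to 19, whereas *Mki67* kept 136 of 152 and *Birc5* 93 of 107. The myeloid gene *Saa3* was more widespread, in 57 of 97 deep anti-CD9 Ab cells, and kept 96 of 154 UMIs. It had 4 UMIs in the deep control Ab cells. On the lower side, the control Ab UMIs of *Asns* were spread over 43 of 68 cells. Scaling to all UMIs in place of non-immunoglobulin UMIs moved the median of all genes in deep cells from 0.15 to 0.39 and gave 250 genes higher (9.84%) and 30 lower. Without the *Ms4a1*, *Csf1r* and CD3 limits the split turned round, with 235 genes higher (4.2% of 5591) and 457 lower, and a median of 0.01. Scaling to all UMIs turned the small list medians for ER-associated degradation (-0.03), plasma cell regulators (-0.02) and antibody glycosylation (-0.20) positive.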

How the data were processed

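The authors sorted live CD45+ thalamic cells, made droplet 3-prime libraries, 1 per antibody, and deposited filtered UMI count matrices; per the labels, these were made with Cell Ranger 8.0.0 on GRCm39, whereas the study's methods name another version and an earlier build, so no coordinate was taken from the matrices. Sequences come from GRCm38 annotation and serve as description. The counts covered 33696 genes, 390 of them immunoglobulin genes.

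Cells were selected by the marker rule, counts were summed per library and class, and levels were divided by the non-immunoglobulin UMIs. Intervals of shares are exact binomial (Clopper-Pearson), and those of medians come from order statistics. Log2 ratios used 0.5 added to each sum. Genes needed 50 UMIs over both libraries together, or 20 UMIs in the comparisons of classes and with B cells. A gene could thus pass through the group where it was high. Since each antibody had a single library, nothing was tested between them. Doublets were predicted by comparison with simulated cell pairs (30 components, 50 neighbours, 0.8% per 1000 barcodes) and kept. Scripts were tested on simulated data. Genes were named by rule: chain and marker genes, members that define a role, the 5 most abundant and the 3 highest and lowest ratios of each list, the 10 highest and lowest ratios over all genes, and the 5 most frequent variable genes; genes of the class comparison were chosen after their values were seen. The members and all lists were chosen with earlier results of these data known. Scripts ran in Python 3.11.15 with scikit-learn 1.9.0 for doublets, pandas 2.3.3 and NumPy 2.4.6 for tables, SciPy 1.17.1 for intervals and Matplotlib 3.10.9 for plots. A few genes that met these rules are not reported here.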

Additional observations from a re-analysis of the deposited data

How the results depend on the processing

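Of 121 values under alternatives, 91 stayed within their counting interval or, for counts of genes, within 1.5 times the value given in the report, 29 moved and 1 reversed. The depth limit of 3000 UMIs and the dropping of the *Ms4a1*, *Csf1r* and CD3 limits were chosen after seeing the data. The control Ab share of 0.650% became 1.64% without the limits, 1.51% without them at 3000 UMIs and 0.897% with a mitochondrial limit of 2%. The anti-CD9 Ab share of 1.59% became 0.671% at 3000 UMIs, 2.79% without the limits, 1.23% with both changes, 1.29% with 3 UMIs of each marker, 1.07% at 1000 UMIs and 1.86% with the 2% limit. The anti-CD9 Ab immunoglobulin median of 24.7% became 51.5%, 44.2% (3000 UMIs, with and without the limits), 31.1% (3 UMIs of each marker), 37.7% (1000 UMIs) and 30.8% (2% limit). Anti-CD9 Ab IgM (6.79%) became 11.3% at 3000 UMIs, 12.1% also without the limits and 14.4% as a share of UMIs, IgA (41.6%) became 34.5% at 3000 UMIs without the limits and 34.2% as a share of UMIs, and kappa (97.4%) became 100% at 3000 UMIs and 99.1% as a share of UMIs. The chaperone median (0.17) was -0.10 with cells weighted equally, the reversal, and 0.35, 0.43 and 0.50 without the limits, also at 3000 UMIs, and scaled to all UMIs. Genes past 2-fold (272) were 653 without the limits, 692 also at 3000 UMIs, 940 at 20 UMIs per gene, 473 with cells weighted equally and 446 scaled to all UMIs. The cause of these moves was not tested.

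The spread between mice was not measured, and the shallow anti-CD9 Ab cells had a median of 761 non-immunoglobulin UMIs, with 10 *Prdm1* UMIs in 133 cells. No paired analysis was possible because each antibody had 1 library and no result came from a test.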

Other observations

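The lambda variable gene *Iglv1* was found in kappa plasma cells. At least 3 *Iglv1* UMIs were present in 41 of 66 deep kappa cells in the control Ab library (62.1%) and 77 of 96 in the anti-CD9 Ab one (80.2%), with 965 and 4783 UMIs in all, beside 522 and 1053 UMIs of the lambda constant gene *Iglc1* in the same cells. None of 46 and 369 B cells and none of 5524 and 2890 T cells reached 3 UMIs, and 3 of 1931 and 3 of 2276 *Csf1r* cells did. *Igkc* had 289803 and 463629 UMIs in these plasma cells. The gene was noticed after its values were seen, and no test was made.

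Antibody transcripts in other cells differed between the libraries. In *Csf1r* cells *Jchain* was at 370 CPM in the control Ab library and 41.5 in the anti-CD9 Ab one, and immunoglobulin genes took 0.506% and 0.107% of UMIs. The *Csf1r* cells were not cleared of cells with plasma cell markers: they held 283 and 278 *Mzb1* and 136 and 14 *Tnfrsf17* UMIs, and 33 and 20 of them had at least 5 heavy chain UMIs.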
